A study of Mus musculus with 2 samples.

Results

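Aerocytes, the Car4-high capillary endothelial cells of the lung, made up 532 of the 1344 cells sorted for a p16 reporter from old mice. A cell was taken as endothelial when the mean of its deposited natural-log values for Cldn5, Cdh5, Ramp2 and Egfl7 was 2 or more, and as Car4-high when the mean for Car4, Ednrb and Kitl was 2 or more as well. The members were 39.6% of all cells (95% exact binomial interval 37.0 to 42.3%) and 87.1% of the 611 endothelial cells (84.1 to 89.6%). They were set against the 79 remaining endothelial cells, which met the first condition only, and against all 812 other cells. The study used C57BL/6 mice of the p16-FDR line at 20 to 22 months of age. Every cell therefore came from an animal with the reporter allele, which combines FLP recombinase, a diphtheria toxin receptor and the fluorescent protein mCherry. The labels give 1 group, mCherry-positive lung cells, with 2 samples. Unsorted cells, mCherry-negative cells and young animals are not among the groups, and how many animals gave each sample is not stated in the labels.

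The table held 2 libraries whose names match neither sample title, so it counts as 1 sample without replicates, comparisons carry no test, and values per library are within-batch values. Library 1 gave 388 members among 1145 cells (33.9%, interval 31.1 to 36.7%) and library 2 gave 144 among 199 (72.4%, 65.6 to 78.5%). Depth was counted in unique molecular identifiers (UMIs), of which members held a median of 5378 (5073 in library 1 and 6645 in library 2, range 2517 to 31340), the remaining endothelial cells 4377 and all other cells 6267. Levels are given as rates, the summed UMIs of a gene per 10000 UMIs of a class, with exact 95% Poisson intervals. Cells are not independent animals, so all intervals cover counting error only. The libraries shared 0 cell barcodes.

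Alveolar capillaries consist of a pair of intermingled endothelial cell types. Aerocytes are large, thin, ramified cells that lie against the alveolar epithelium and are specialised for gas exchange and leukocyte traffic. General capillary cells are smaller, carry Plvap, Gpihbp1 and Aplnr, and act as progenitors in maintenance and repair. Aerocytes depend on VEGFA from alveolar type 1 epithelial cells, which signals through Kdr, and they make apelin, whose receptor Aplnr is carried by general capillary cells. The p16 protein, encoded by Cdkn2a, and its neighbour p15, encoded by Cdkn2b, are inhibitors of cyclin-dependent kinases and are used as markers of senescent cells.

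The 3 markers of this cell type whose upstream windows lie wholly outside their annotated genes are shown first. Emp2 and Apln, which the rule did not use, had higher transcript levels in members than in the remaining endothelial cells. Car4 is a rule gene, so its difference was set by the rule. Each line gives the 250 bases before the RefSeq start on the gene's strand (GRCm38.p6), and capitals mark an ETS motif.
Car4 (chr11:84957504-84957753, plus strand): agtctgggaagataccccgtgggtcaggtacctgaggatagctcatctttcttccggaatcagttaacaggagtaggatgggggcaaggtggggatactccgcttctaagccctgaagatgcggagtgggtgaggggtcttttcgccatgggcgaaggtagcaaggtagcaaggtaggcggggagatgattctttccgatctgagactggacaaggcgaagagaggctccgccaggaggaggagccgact
Emp2 (chr16:10313969-10314218, minus strand): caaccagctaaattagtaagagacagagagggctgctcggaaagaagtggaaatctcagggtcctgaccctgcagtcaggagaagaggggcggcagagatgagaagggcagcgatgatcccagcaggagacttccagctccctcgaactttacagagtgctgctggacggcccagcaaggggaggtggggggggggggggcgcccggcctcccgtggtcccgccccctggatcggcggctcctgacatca
Apln (chrX:48034854-48035103, minus strand): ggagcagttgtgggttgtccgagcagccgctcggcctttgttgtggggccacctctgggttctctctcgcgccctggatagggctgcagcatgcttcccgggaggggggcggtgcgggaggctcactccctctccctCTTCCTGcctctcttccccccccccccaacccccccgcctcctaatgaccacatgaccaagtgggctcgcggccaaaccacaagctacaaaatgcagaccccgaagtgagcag

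The 4 motifs of factors found in endothelium that were searched for on both strands of all such windows were GGTGTGA for T-box, TGTTTAC for forkhead, AACAAT for SOX and CAGGAAG for ETS factors, none of which holds another. The Apln window held 1 match, to the ETS letters on the reverse strand, and those of Car4 and Emp2 held 0. Of the genes at least 2-fold higher in members, defined below, 117 had a window, and 3.42% of these held the T-box, 3.42% the forkhead, 4.27% the SOX and 13.7% the ETS letters. Over the 7412 genes with a window among all genes tested below, the shares were 3.18%, 2.55%, 6.46% and 11.7%. Counted per window rather than per gene, all 32851 windows gave 3.33%, 3.17%, 9.42% and 10.8%. These are descriptions of letters in a window and not of binding.

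The rule used 3 aerocyte genes and 4 endothelial genes, so their levels are given as a description only. Car4, a membrane-bound carbonic anhydrase that speeds the exchange of carbon dioxide and bicarbonate (chromosome 11, 84957786 to 84966044), measured 25.4 UMIs per 10000 in members of library 1 and 42.8 in library 2. In the remaining endothelial cells it measured 2.56 and 1.75, and in cells under the endothelial cut 0.149 over both libraries. Ednrb, the endothelin B receptor (chromosome 14, 103814625 to 103844402), measured 16.1 and 19.5 in members against 0.987 and 0 in the remaining endothelial cells, where the 3-count floor of library 2 was a rate of 0.657. Kitl, the ligand of the Kit receptor (chromosome 10, 100015630 to 100100416), measured 15.2 and 19.4 against 4.15 and 1.31. A Car4 UMI was present in 100% of members (99.3 to 100%), an Ednrb UMI in 99.8% (99 to 100%) and a Kitl UMI in 99.4% (98.4 to 99.9%).

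The cuts fell in a sparse range of the scores. The Car4, Ednrb and Kitl means just outside the cut were 1.91 and 1.83, and those just inside were 2.01 and 2.01. All members had an endothelial mean of at least 2.63, and their median for the 3 aerocyte genes was 3.03, against 0.564 in the remaining endothelial cells. Among single members the Car4 level ran from 3.68 to 112 per 10000 with a median of 29.6, and in the remaining endothelial cells from 0 to 16.3 with a median of 0.

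**Figure D1:**
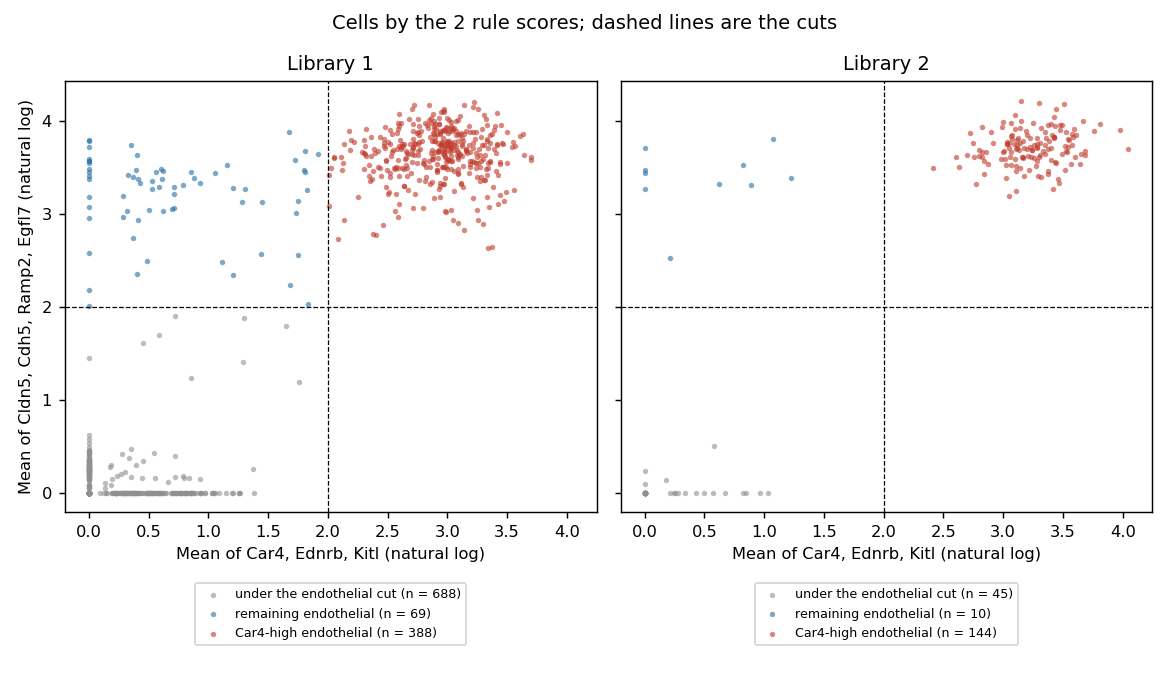
Each point is 1 cell, placed by its mean natural-log value of Car4, Ednrb and Kitl (x axis) and of Cldn5, Cdh5, Ramp2 and Egfl7 (y axis), with 1 panel per library and dashed lines at the cuts of 2. The 388 and 144 members form 1 cloud per library, and the 69 and 10 remaining endothelial cells lie mostly at aerocyte means under 1.

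The other markers of the cell type were higher in members. They were chosen with earlier results of these data known, so their levels too are a description and no support for the label. Emp2, a tetraspan membrane protein, measured 49.0 and 55.8 per 10000 in members of library 1 and library 2, against 9.83 and 0.438 in the remaining endothelial cells. Kdr, the main VEGF receptor, measured 27.5 and 22.4 against 6.98 and 3.07. Apln, which encodes apelin, measured 3.79 and 3.65 against 0.516 and 0, and a UMI of it was present in 77.1% of members (73.3 to 80.6%) and in 13.9% of the remaining endothelial cells (7.16 to 23.5%). For each of these genes both libraries put the members higher. After each cell was thinned to 2500 UMIs the Apln shares were 56.8% and 7.54%.

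A gene was called past 2-fold when its rate differed at least 2-fold in the same direction in both libraries, among genes with a UMI in at least 5% of cells of either class, with counts under 3 on the lower side raised to 3. Against the remaining endothelial cells 157 of 9415 genes (1.67%) were past 2-fold higher in members and 624 (6.63%) past 2-fold lower. These counts carry no test, and they depend on the 10 remaining endothelial cells of library 2, whose 45672 UMIs put the 3-count floor at 0.657 per 10000 and so allow no call of higher for genes of low level. Of the 624 genes called lower, 335 (53.7%) had under 3 UMIs in those 10 cells. One of the 10 cells held 639 UMIs of the lymphatic chemokine gene Ccl21a, 9 of Prox1 and 14 of Reln among 11097 UMIs. Without this cell 130 genes were past 2-fold higher and 513 lower, of which 120 and 495 were among the 157 and 624. Of the genes named here, Ccdc184, Nostrin, Pde8b, Prdm1, Smad6 and Tbx3os1 were then no longer called higher. Cd63, Hspg2, Igfbp3, Lama4, Nrp2, S100a6 and Thbs1 were no longer called lower, and Timp2 passed as higher. Leaving out the 11097 UMIs of this cell also raised the 3-count floor of library 2 above 0.657. A raised floor alone can end a call of higher for genes whose comparison level is at the floor. Ccdc184, Pde8b, Prdm1 and Tbx3os1 had library 2 ratios only a little above 2-fold. The part of the floor in these losses was not tested. Of 13 further aerocyte genes tested, 12 were past 2-fold higher and the median log2 ratio was 2.51, against -0.01 over all genes tested. Besides Emp2, Kdr and Apln these were Tbx2, Fibin, Chst1, Cyp4b1, Prx, Pmp22, Sirpa, Sept4 and Rprml. Fibin measured 8.02 against 0.712, the sulfotransferase gene Chst1 4.59 against 0.529 and the cytochrome P450 gene Cyp4b1 29.3 against 5.58. The exception was Pcdh17, a protocadherin, at 1.73 in members and 3.34 in the remaining endothelial cells. For this list and those below, the shares over all genes tested were 1.67% higher and 6.63% lower. A single call in a short list is not a result about that list. All lists were chosen with earlier results of these data known.

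**Figure D2:**
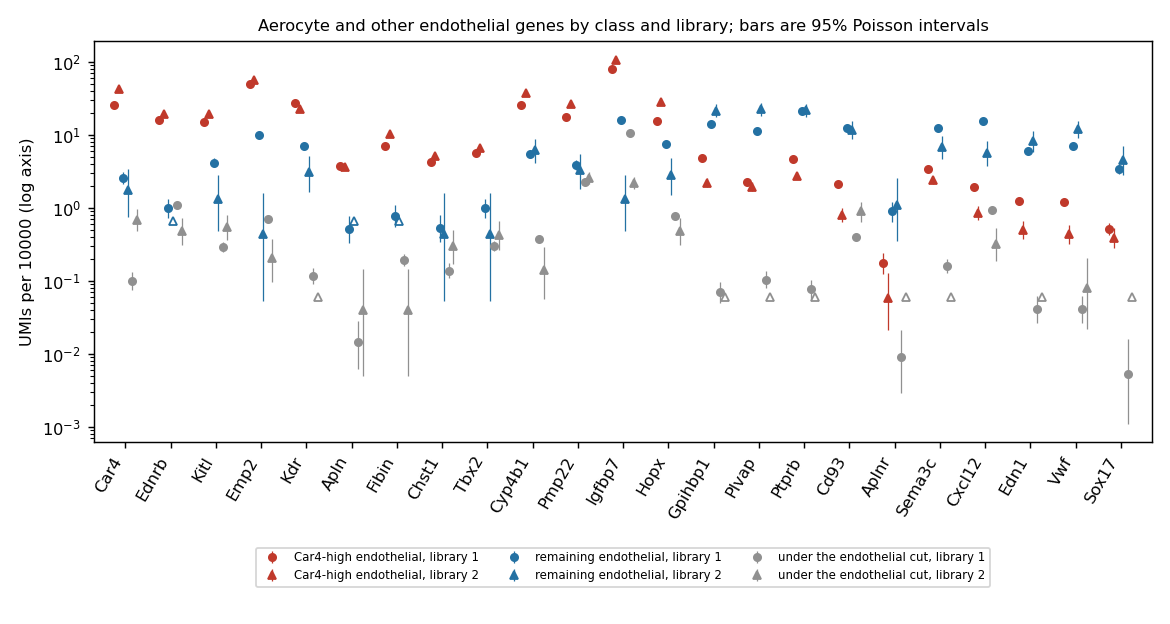
Rates of aerocyte genes (left) and of general capillary, arterial and venous genes (right) in UMIs per 10000 on a log axis, by class and library, with 95% Poisson intervals; open symbols mark 0 UMIs and stand at the 3-count floor. The left-hand genes are highest in members of both libraries, for example Car4 at 25.4 and 42.8, and the right-hand genes are highest in the remaining endothelial cells, for example Vwf at 7.09 and 12.0.

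The genes with the largest ratios among those past 2-fold higher, with at least 1 UMI per 10000 in members, were not all known markers of the type. Tmeff2, a transmembrane protein with follistatin-like domains, measured 2.67 and 3.33 in members of the libraries against 0.112 and 0, a ratio over both libraries of 28.3 (12.1 to 87.4) that rests on few UMIs in the remaining cells. Egflam, the matrix protein pikachurin, measured 1.59 against 0.0611, a ratio of 26.1 (8.87 to 127). The procollagen enhancer Pcolce2 measured 4.59 against 0.285. The antisense RNA Tbx3os1 measured 1.09 against 0.102, and its partner Tbx3 10.4 against 3.42; whether the counting kept strands apart is not given in the sources used here. Further down this list stood the integrin subunit Itgb5 (3.04 against 0.285), the p15 gene Cdkn2b (3.22 against 0.305), Sirpa (1.69 against 0.183), Ccdc184 (1.28 against 0.142), the phosphodiesterase Pde8b (1.42 against 0.163), the Ras regulator Rasa4 (1.81 against 0.224) and the transcriptional repressor Prdm1 (1.47 against 0.183). Without the cells that held markers of another lineage, described at the end, the ratio of Pcolce2 went from 16.1 to 31.9, that of Cdkn2b from 10.5 to 22.5 and that of Sirpa from 9.20 to 23.5.

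Among genes past 2-fold lower, those with the largest ratios and at least 1 UMI per 10000 in the remaining endothelial cells included genes of matrix and vessel wall. The protease gene Prss23 measured 0.0718 in members against 1.95, a level 27.2-fold lower (17.1 to 45). Ltbp4, which binds latent TGF-beta, measured 0.0843 against 1.32. The tetraspanins Cd81 (0.175 against 2.30) and Cd63 (0.106 against 1.04) and the matrix genes Bgn (0.150 against 1.59) and Mmrn2 (0.137 against 1.34) lay on the same side. So did the TGF-beta-binding Lrrc32 (0.150 against 1.28), the integrin subunit Itga6 (0.337 against 2.75), the protease Adamts1 (0.278 against 2.24), Emp3 (0.140 against 1.24) and Mcf2l (0.131 against 1.04). Single cells carried part of 3 such values: without the cell with most UMIs of the gene, the rate in the remaining endothelial cells went from 1.12 to 0.0832 for Thbs1, from 1.40 to 0.812 for Eln and from 5.54 to 3.30 for S100a6, where members measured 0.0374, 0.140 and 0.621.

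**Figure D3:**
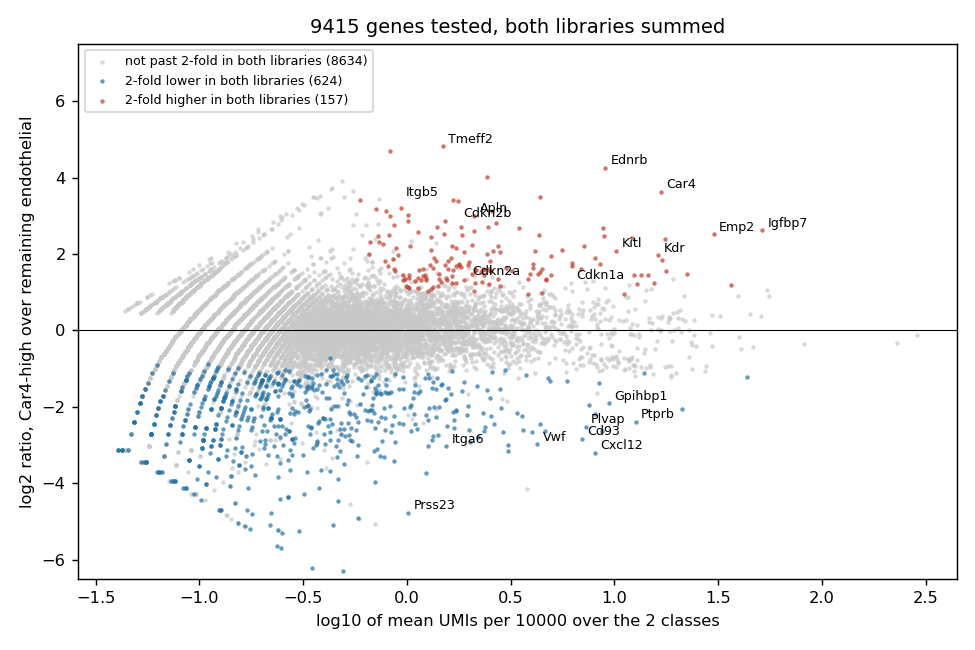
Each point is 1 of the 9415 genes tested, placed by its mean rate over the 2 classes (log10 axis) and by the log2 ratio of members to remaining endothelial cells. The 157 genes past 2-fold higher in both libraries include Tmeff2 and Igfbp7 beside the rule genes Ednrb and Car4, and the 624 past 2-fold lower include Prss23 and Cxcl12.

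General capillary genes were lower in members. Of 12 tested, 10 were past 2-fold lower, 1 was higher and the median log2 ratio was -2.29. Plvap, which forms the diaphragms of caveolae and fenestrae, measured 2.24 and 1.96 in members of library 1 and library 2 against 11.4 and 22.3. Cxcl12, a chemokine, measured 1.91 and 0.853 against 15.4 and 5.69, and the phosphatase Ptprb 4.63 and 2.77 against 21.2 and 21.9. Gpihbp1, which carries lipoprotein lipase to the capillary surface, measured 3.98 against 14.9 over both libraries, and the apelin receptor Aplnr 0.137 against 0.916. Cd93, Tek, Sema3c, Kit and Lpl were the others past 2-fold lower. Nostrin, a regulator of nitric oxide synthase traffic, was the gene past 2-fold higher, at 5.94 against 2.99, a call that also ended without the cells of another lineage, and Hilpda measured 6.45 against 8.77. Over both libraries Plvap measured 7.99 in 73 members described below, chosen by a score that includes it, and 0.324 in the other 459.

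The comparison class also held transcripts of arterial and venous genes, and in library 2 the lymphatic cell above. The summed rate of 7 lymphatic genes there was 157 per 10000 and 3.76 without that cell, against 4.89 in library 1 and 2.84 in members. Of 10 arterial genes tested 8 were past 2-fold lower in members, among them Sox17 (0.474 against 3.56), Gja4 (0.555 against 3.87) and Edn1 (1.01 against 6.21), while the Notch ligand Dll4 measured 1.13 against 0.957 and Efnb2 1.71 against 3.13. Of 9 venous and larger-vessel genes tested all 9 were past 2-fold lower. Vwf, the clotting factor stored by endothelial cells of larger vessels, measured 1.19 and 0.441 in members of the libraries against 7.09 and 12.0, and was present in 14.7% of members (11.8 to 18.0%) and 69.6% of the remaining endothelial cells (58.2 to 79.5%). Of the latter cells 92.4% had a UMI of the general capillary gene Gpihbp1, so most of those with Vwf held both. These genes therefore do not sort the comparison cells into separate vessel types. Nr2f2, a venous transcription factor, measured 0.0312 against 0.448. Set against only the remaining endothelial cells without a Vwf UMI, 117 genes were past 2-fold higher and 582 past 2-fold lower. This class was small in library 2, where 60% of the 10 remaining endothelial cells had a Vwf UMI. It still held the lymphatic cell and the cell with most Cdkn2a UMIs described below, each with 0 Vwf UMIs.

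Ligands and receptors of the VEGF, apelin and angiopoietin pathways divided between the classes. Of 13 tested, Kdr, Apln and the co-receptor Nrp1 (18.3 against 6.64) were past 2-fold higher in members. Past 2-fold lower were the ligands Vegfa (0.702 against 4.05), Vegfc (0.0686 against 0.489) and Angpt2 (0.0749 against 0.204), the receptors Aplnr and Tek, and the co-receptor Nrp2 at 0.0125 against 0.977, or 0.562 without 1 cell. The second VEGF receptor Flt1 measured 9.74 and 10.1 and the orphan receptor Tie1 2.87 and 3.81. The apelin ligand was thus higher where its receptor was lower.

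Genes of vessel tone and gas exchange included the rule genes Ednrb, Ramp2 and Car4, which are left out of these counts. Of 13 other tone genes tested, 0 were past 2-fold higher and 4 past 2-fold lower, the endothelin gene Edn1, the prostacyclin synthase Ptgis, the nitric oxide synthase Nos3 and the clearance receptor Npr3. Nos3 was sparse, at 0.0281 in members and 0.163 in the remaining endothelial cells. The converting enzyme Ace measured 11.9 and 12.9, and Calcrl, the receptor that pairs with Ramp2 to bind adrenomedullin, 28.4 and 29.6. Of 8 other genes of gas and ion transport 0 were past 2-fold higher, and another carbonic anhydrase, Car14, was past 2-fold lower at 0.212 against 1.08. Of all genes tested 6.63% were called lower. The water channel Aqp1 measured 15.8 in members and 13.5 in the remaining endothelial cells.

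Among transcription factors T-box genes were higher and several SOX and forkhead genes lower in members. Of 20 endothelial factors tested, Tbx2 (5.67 and 6.68 in members of the libraries against 0.987 and 0.438) and Tbx3 (10.2 and 10.6 against 3.48 and 2.85) were past 2-fold higher. Past 2-fold lower were Sox17, Sox7 (0.789 against 1.75), Foxo1 (0.362 against 1.14), Foxp1 (2.78 against 7.0), Ets1 (2.30 against 5.19) and Nr2f2. Foxf1, a factor of lung endothelium, measured 7.91 against 3.68 over both libraries without passing the rule, Sox18 4.29 against 2.65 and Epas1 25.3 against 33.5. Of 11 Notch pathway genes Mfng, which modifies Notch receptors, was past 2-fold higher (2.38 against 0.774) and Jag1, Hey1 and Dll1 past 2-fold lower. Of 14 BMP and TGF-beta genes the inhibitor Smad6 was past 2-fold higher (3.89 against 1.75) and 0 were lower.

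Adhesion and matrix genes were called in both directions. Igfbp7, a secreted protein of the vascular basement membrane, measured 80.8 and 105 per 10000 in members of the libraries against 15.8 and 1.31, a ratio over both of 6.15 (5.71 to 6.63); it measured 9.85 in cells under the endothelial cut. Of 12 basement membrane and matrix genes it was the 1 past 2-fold higher, and Lama5, Hspg2, Sparcl1 and Lama4 were past 2-fold lower, with Sparcl1 at 1.09 against 6.94. Of 8 integrin genes Itga3 (3.89 against 0.977) and Itgb5 were past 2-fold higher and Itga6, Itga1 (3.40 against 8.45) and Itga5 (0.0437 against 0.427) past 2-fold lower. Of 15 junction and adhesion genes Cd34 (6.78 against 2.22) and Icam2 (26.4 against 8.98) were past 2-fold higher, and Vcam1 and Jam2 (0.259 against 1.45) past 2-fold lower. Pecam1 measured 19.1 and 14.7 and Cdh5 24.4 and 16.9.

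Among signals to other cells, 2 of 17 paracrine ligand genes other than the rule gene Kitl were past 2-fold higher in members, Sema3f (6.30 against 2.28) and Sema7a (3.08 against 0.896). Past 2-fold lower were 7, namely Sema3c, Cxcl12, Sema3g, Bmp4, Bmp6, Edn1 and Hbegf. The Wnt agonist Rspo3 measured 1.27 against 0.183 but did not pass in both libraries, at 1.18 and 1.45 in members against 0.0673 and 1.31. Of 8 lipid uptake genes 3 were past 2-fold lower, Gpihbp1, Lpl (0.415 against 1.65) and Fabp5, while the fatty acid translocase Cd36 measured 23.3 and 16.7. Of 8 coagulation genes Vwf, Plat (0.343 against 1.08) and Entpd1 (0.234 against 1.22) were past 2-fold lower, and the thrombin receptor thrombomodulin, Thbd, measured 13.6 and 9.53. Of 8 caveola and fenestra genes Plvap was the 1 past 2-fold lower; Cav1 measured 10.8 and 14.9.

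Antigen presentation genes of class I and class II differed in their calls. The 5 genes past 2-fold lower in members, of 13 tested, were the class II genes Cd74 (2.93 against 13.3), H2-Aa (1.11 against 4.56), H2-Ab1 (1.23 against 5.52) and H2-Eb1 (1.15 against 3.89) and their activator Ciita. The class I genes B2m, H2-K1 and H2-D1 measured 20.1, 20.6 and 36.5 in members and 16.4, 21.3 and 28.1 in the remaining endothelial cells. Of 17 interferon response genes Ifitm3 was the 1 past 2-fold lower, at 9.77 and 4.85 in members of the libraries against 34.9 and 27.8. That share was near the 6.63% of all genes tested that were called lower. Of 17 immediate early and stress genes Atf3, Socs3, Hspa1a and Hspa1b were past 2-fold lower, and Fos measured 4.72 and 5.74 and Jun 23.9 and 20.0.

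Against all other cells, most of which were not endothelial, 1865 of 10143 genes (18.4%) were past 2-fold higher in members and 1456 (14.4%) past 2-fold lower, a background that makes a single call in this comparison uninformative. Of 13 further aerocyte genes 12 were past 2-fold higher. The gene Car4 measured 0.324 per 10000 in all other cells and Apln 0.0505, against 30.9 and 3.75 in members.

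The cyclin-dependent kinase inhibitors at the reporter locus were present in most members. Cdkn2a (chromosome 4, 89274471 to 89294653) measured 2.35 and 3.75 per 10000 in members of library 1 and library 2, and a UMI was present in 60.7% of members (56.4 to 64.9%), or 40.1% after thinning. The neighbouring gene Cdkn2b (chromosome 4, 89306299 to 89311039) measured 2.77 and 4.17, with a UMI in 75.9% (72.1 to 79.5%), or 52.7% after thinning. Cells under the endothelial cut measured 0.432 and 0.162 for these genes. The counts of Cdkn2a do not separate p16 from the overlapping transcript p19ARF. Both Cdkn2a and Cdkn2b were detected in 260 members (48.9%, 44.5 to 53.2%) and neither in 65 (12.2%, 9.56 to 15.3%), whose median depth was 4157 UMIs against 6032.

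Library 2 was higher for both genes and for Cdkn1a, which encodes the inhibitor p21 and measured 7.73 and 10.7 per 10000 in members of the libraries. All 3 inhibitors were detected in 234 members and none of them in 7 (1.32%, 0.531 to 2.69%). The reporter transcript mCherry was detected in 61 members (11.5%, 8.89 to 14.5%), at rates of 0.265 and 0.118. Proliferation was not detectable at this depth through Mki67, at 0 of 532 members (a count of 0 leaves room for 0.564% of cells with a UMI), and the same held for the cytokine Il6. In cells under the endothelial cut a Mki67 UMI was present in 3.0% and an Il6 UMI in 5.87%.

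Of 14 cell cycle inhibitor and senescence genes tested against the remaining endothelial cells, 1 was past 2-fold higher, Cdkn2b, and 2 were past 2-fold lower, Cdkn2c (0.0936 against 0.305) and Cdkn1c (0.0718 against 0.366, or 0.220 without 1 cell). Over all genes tested 1.67% were higher and 6.63% lower. Cdkn2a did not pass the rule, with rates of 2.35 in members of library 1 against 1.21, and passed as higher without the cell described next. In that class 34 of 54 Cdkn2a UMIs came from 1 cell of library 1, which also held 74 UMIs of Lyz2, 55 of C1qa, 72 of Cd74 and 6 of mCherry. Over both libraries the ratio was 2.54 (1.93 to 3.41), and 6.71 without that cell, where the rate of the remaining endothelial cells was 0.417. Cdkn1a measured 3.97 and 0.438 in the remaining endothelial cells and its ratio was 2.38 (2.04 to 2.78). It was 1.95 in library 1 and thus under 2-fold there.

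Split by the Car4, Ednrb and Kitl mean, endothelial cells had no detected Cdkn2a at its low end. The 56 cells under 1 held 0 Cdkn2a UMIs among 299210, where the 3-count floor was a rate of 0.100 and 5.36% of cells with a UMI, with 1 UMI of Cdkn2b and 0 of mCherry. These cells carried Plvap at 15.3, Cd93 at 14.4, Ptprb at 25.5 and Vwf at 10.5 per 10000, and 44.6% of them (31.3 to 58.5%) had a Cdkn1a UMI. The 23 cells from 1 to 2 measured 2.81 for Cdkn2a, with 34 of 54 UMIs from the cell named above. From 2 to 2.5 (51 cells) the Cdkn2a rate was 1.34, from 2.5 to 3 (199 cells) 2.62 and at 3 or more (282 cells) 3.35. At 3 or more it was 2.55 in library 1 and 4.08 in library 2, and in library 1 the step from 2.5 to 3 measured 2.67, so the last step was higher in library 2 only.

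Cdkn1a measured 3.58 under 1, 3.75 from 1 to 2 and 4.03 from 2 to 2.5. It measured 8.27 from 2.5 to 3 and 10.3 at 3 or more. Over the same steps Cdkn2b measured 0.0334, 0.729, 1.77, 3.06 and 3.75. The last step of Cdkn2b was higher in library 2 only, where it went from 3.04 to 4.43. In library 1 it measured 3.07 and then 3.005. Library 2 gave 20 of the 199 cells from 2.5 to 3 and 123 of the 282 at 3 or more. Cdkn1a measured 8.41 and then 9.05 at these steps in library 1, with overlapping intervals (7.85 to 9.01 and 8.39 to 9.76). In library 2 it went from 7.54 to 11.4, with intervals apart. The mCherry transcript had another order, with 0 UMIs under 1 and then 0.469, 0.216, 0.267 and 0.183, intervals of which overlapped; without the cell named above, which held 6 of the 9 UMIs from 1 to 2, that step measured 0.166. Median depth differed between these groups, from 4170 UMIs under 1 to 6907, 7773, 5322 and 5260. All cells had been sorted for mCherry, so the steps compare cells within the sorted population.

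**Figure D4:**
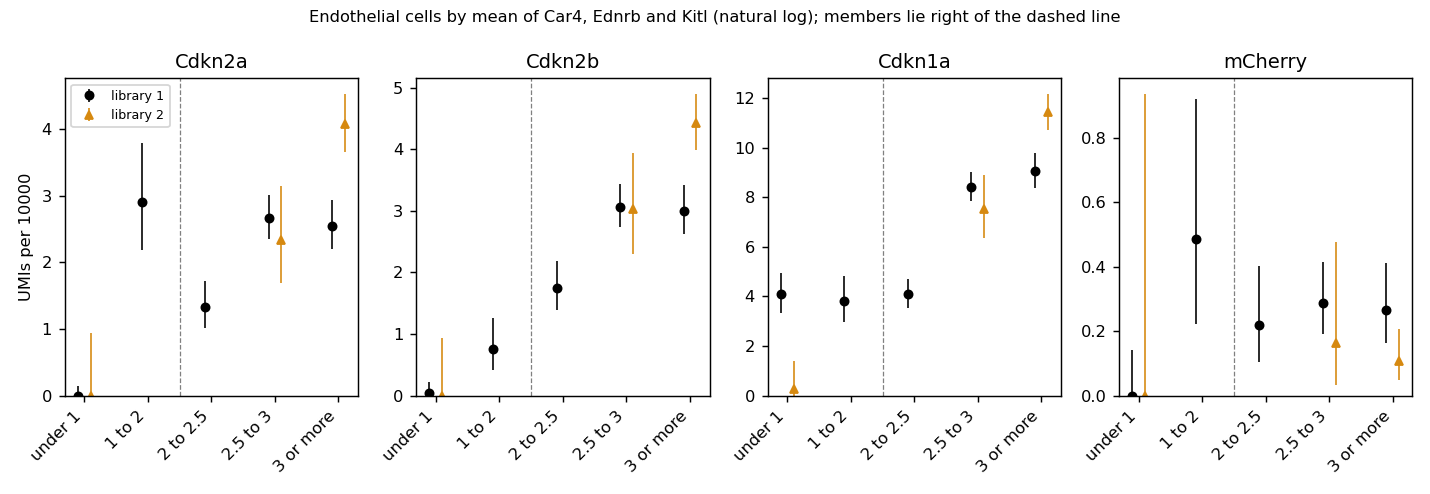
Rates of Cdkn2a, Cdkn2b, Cdkn1a and mCherry in UMIs per 10000 (y axes from 0) in endothelial cells grouped by their mean of Car4, Ednrb and Kitl (x axis), by library, with 95% Poisson intervals; groups of fewer than 8 cells are left out, and members lie right of the dashed line. Cdkn2a is at 0 under 1 in both libraries, and the point from 1 to 2 rests mainly on 1 cell.

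Among 18 p53 target genes Phlda3, which restrains Akt signalling (chromosome 1, 135766119 to 135769136), was the 1 past 2-fold higher, at 6.54 and 9.02 in members of the libraries against 1.39 and 0.438. Of the 18, 13 had a ratio above 1 over both libraries, and the median log2 ratio was 0.34. Over all 9415 genes tested, 4693 had a ratio above 1 and the median was -0.01. Bax measured 2.48 and 1.28 in the 2 classes, Fas 2.02 and 1.89 and Mdm2 0.568 and 0.489. Of 7 survival genes 0 were higher and Bcl2l11 was past 2-fold lower (0.159 against 0.489), where 6.63% of all genes tested were called lower. Of 13 secretory factor genes tested 0 were past 2-fold higher and 5 past 2-fold lower, Csf1, Hgf, Igfbp3, Igfbp4 (0.683 against 3.20) and Vegfa. Timp2 measured 10.2 against 4.23, and at 10.4 against 5.91 in library 2 it stayed under 2-fold there. The floor of library 2 allows no call of higher for genes of low level, so few calls of higher in these lists are partly set by the rule. In library 1 alone 3 secretory factor genes were higher and 6 lower, and 3 p53 target genes were higher. Library 2 alone gave 1 and 6 secretory factor genes and 2 higher p53 target genes.

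Members were not uniform in their general capillary genes. By the mean natural-log value of 8 such genes (Plvap, Cd93, Ptprb, Cxcl12, Tek, Sema3c, Gpihbp1 and Kit, chosen after their values were seen), 73 members (13.7%, 10.9 to 16.9%) stood at 1 or more, 61 of library 1 and 12 of library 2. The distribution had few cells near that cut, with 18 members from 0.75 to 1 and 3 from 1 to 1.25, and more on either side, 311 under 0.25 and 23 from 1.75 to 2. The 73 cells had a median of 9343 UMIs, against 5124 in the other 459 members and 4377 in the remaining endothelial cells. Doublets had not been called, and the part of depth or of joined cells in these values was not tested.

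Several genes outside the score, chosen after their values were seen, took rates in the 73 cells between those of the other classes. Vwf measured 3.74 per 10000 there, against 0.0819 in the other members and 7.55 in the remaining endothelial cells, and Sox17 1.70, against 0.0901 and 3.56. Edn1 measured 4.03, against 0.0696 and 6.21, and Ifitm3 22.2, against 3.83 and 34.3. Emp2 measured 34.2, against 56.5 and 8.96, Igfbp7 52.8, against 99.8 and 14.4, and Tbx2 3.22, against 6.86 and 0.936. Per cell rather than per 10000 UMIs, Emp2 averaged 35.8 UMIs in the 73 cells and 30.0 in the other members, and Car4 20.3 and 18.4. Cdkn2a measured 1.69 in the 73 cells and 3.14 in the other members, with per-cell means of 1.77 and 1.67 UMIs, so the rates and the per-cell values do not order these groups alike. The mCherry rate of 0.223 in the 73 cells lay above both the 0.217 of the other members and the 0.183 of the remaining endothelial cells, with few UMIs in each. Restricted to the 459 other members, Vwf was present in 3.49% of cells, and 186 genes were past 2-fold higher than in the remaining endothelial cells and 764 lower.

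**Figure D5:**
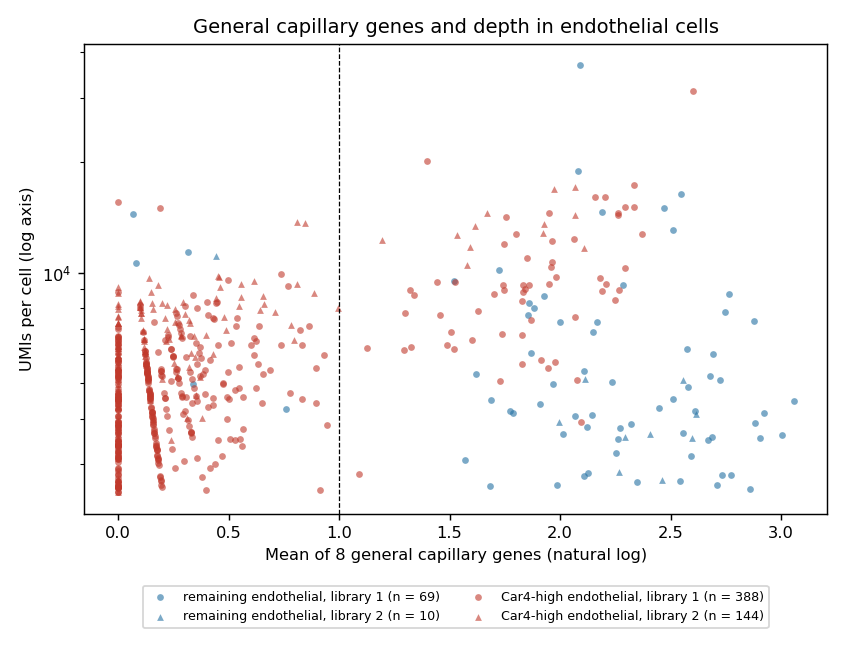
Each point is 1 endothelial cell, placed by its mean natural-log value of 8 general capillary genes (x axis, dashed line at 1) and its UMIs (log y axis), by class and library. The 73 members right of the line have a median of 9343 UMIs, above the 5124 of the members left of it and the 4377 of the remaining endothelial cells.

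Between the libraries, members were at least 2-fold higher in library 2 for 228 of 8785 genes (2.6%) and at least 2-fold lower for 288 (3.28%). The libraries are not replicates of anything the labels name, so a difference between them has no replicate. Higher in library 2 were Serinc3 (24.0 against 5.31), the chaperone Hspa8 (18.2 against 5.10), the caveolin Cav2 (13.8 against 5.34) and Sox18 (7.35 against 2.87). Lower in library 2 were Gm42418 (34.7 against 283), a gene that overlaps ribosomal RNA sequence, Lars2 (2.69 against 12.5), Atf3 (0.304 against 1.02) and 3 genes of other lineages, Scgb1a1 (0.216 against 1.78), Apoe (0.00981 against 1.93) and Igkc (0.284 against 1.44). Of 12 general capillary genes 6 were at least 2-fold lower there and 0 higher, with a median log2 ratio of -0.89, against 0.04 over all genes tested. Cd93 measured 0.804 against 2.14 and Cxcl12 0.853 against 1.91, while Plvap measured 1.96 against 2.24, and the 73 cells above were 15.7% of members in library 1 and 8.33% in library 2.

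Markers of other lineages were low in members and higher in the remaining endothelial cells of library 1, through a few cells. The summed rate of 9 leukocyte genes was 1.06 in members and 9.12 in the remaining endothelial cells, that of 9 mesenchymal genes 0.443 and 12.8, that of 7 alveolar type 2 genes 0.131 and 34.9, and that of 7 platelet and red cell genes 0.640 and 44.9. The median cell of both classes was at 0 for each of these lists, and single remaining endothelial cells reached 463 for the alveolar type 2 and 2502 for the platelet and red cell genes. In library 2 the remaining endothelial cells were at 0 for the leukocyte, alveolar type 2 and platelet and red cell lists, where members measured 0.0392, 0.0981 and 0.569. Those 10 cells leave room for a rate up to 0.808, above each of these member rates, so the classes are not ordered there. A single member of library 2 reached 64.9 for the platelet and red cell genes. S100a8, Cspg4, Sftpd and Alas2 were at 0 in members. At least 3 markers of one of these lineages or of airway secretory cells, at 2 UMIs or more each, were held by 8 members and by 6 of the remaining endothelial cells. Without those cells 160 genes were past 2-fold higher and 621 lower, of which 152 and 556 were among those called with them; Cdkn2a then passed as higher and Nostrin did not, and Igfbp3 and Thbs1 were no longer called lower. The airway gene Scgb1a1 had a UMI in 46.8% of members and 50.6% of the remaining endothelial cells, at rates of 1.29 and 4.44 against 306 in cells under the endothelial cut; free RNA was not removed. The 9 alveolar type 1 genes summed to 35.4 in members, 32.0 in the remaining endothelial cells and 2.43 in cells under the endothelial cut. Nearly all of the members' sum came from Hopx, at 15.5 and 28.2 in members of the libraries against 7.61 and 2.85, and Clic5, at 16.6 and 11.7 against 10.6 and 5.69. Hopx, Nostrin and Smad6 were no longer called without the cell with most Cdkn2a UMIs. Vegfa is given above, Pdpn and Akap5 measured 0.00936 and 0.0156 in members, Aqp5 was at 0 and Ager, Cldn18 and Rtkn2 at 0.0156, 0.0125 and 0.0218.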

How the data were processed

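Single cells sorted for mCherry were measured by droplet-based 3' RNA sequencing, per the labels' protocols, with Cell Ranger 3.0.2 and the mm10 build named in the submitters' processing notes. Not given in the sources used here were the annotation, strand setting, cell and gene filters and any doublet removal. The authors' deposited values are natural log values of 1 plus UMIs per 10000, as their back-transformed sum of 10000 per cell shows. Whole UMIs were recovered (largest deviation from a whole number 1.78e-10) and summed per class, with exact Poisson, conditional-ratio and Clopper-Pearson intervals at 95% (scipy 1.17.1, numpy 2.4.6, pandas 2.3.3). All cells were kept and no doublets were called. Thinned shares are expectations at 2500 UMIs per cell, and no cell was shallower. No gene of the table had UMIs in fewer than 3 cells.

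The members and all 33 gene lists were chosen with earlier results of these data known. Genes named are the markers and rule genes, Cdkn2a, Cdkn2b, Cdkn1a and mCherry, the 15 largest ratios each way with at least 1 UMI per 10000 in the higher class, and from each list those past 2-fold in both libraries and up to 4 others of highest rate. Genes named between libraries, in lineage checks and for contrast, such as Rspo3, Pcdh17, Foxf1 and Mdm2, were chosen after their values were seen. The design's floor, counts under 3 raised to 3, was applied to the lower class only; a call of lower can still rest on single counts in the remaining endothelial cells. The comparison was also run on simulated Poisson counts with set changes in some genes. Those counts held no mixed cell types, doublets or outlier cells, so the run does not cover such effects. Gene positions are from GENCODE release M21 of GRCm38, which held 15377 of 15526 symbols (99.0%); promoter windows are from RefSeq. Alternatives changed the cuts, filter, weighting, depth, library and comparison cells.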

Additional observations from a re-analysis of the deposited data

How the results depend on the processing

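The share of members moved to 35.8% at an aerocyte cut of 2.5, 33.9% and 72.4% in library 1 and library 2 alone, and 34.2% without the 73 cells high in general capillary genes. Against the remaining endothelial cells 744 genes were higher and 1089 lower in library 1 alone, 326 and 2492 in library 2 alone, and 777 and 1170 with both libraries summed, so the requirement in both libraries sets these counts; with the floor in both classes 1089 were lower. At a 10% filter 469 were lower. Against all other cells 3065 were higher in library 2 alone and 1062 after thinning. The Cdkn2a ratio was 5.91 without cells holding markers of another lineage, 5.70 in library 2 alone (against the 3-count floor), 4.12 as a mean over cells, 5.37 after thinning, 6.71 without the cell with most Cdkn2a UMIs, 58.4 for members at 2.5 or more against cells under 1.5 (16.1 to 483, from 2 UMIs in those cells), 1.07 against cells without a Vwf UMI and 4.77 against these without that cell. The Cdkn1a ratio was 1.95 in library 1, 24.3 in library 2 (6.72 to 201, from 2 UMIs in the comparison), 1.57 against cells without a Vwf UMI, 1.55 against these without that cell and 3.02 for members at 2.5 or more. The mCherry ratio of 1.19 was 3.49 without the cell with most Cdkn2a UMIs and turned to 0.450 against cells without a Vwf UMI, or 1.68 without that cell; it has no value in library 2, where the comparison held 0 UMIs and the floor lies above the members' rate. The cause of these moves was not tested except where the alternative itself removes cells or reads. Of 924 recomputed list counts 795 stayed within 1.5 times. Many reported list counts were 0, and a 0 that stayed 0 is among the 795, so this share says little about stability. Of 80 recomputed main values 54 stayed within 1.5 times (counts) or within the counting interval of the reported value (ratios and shares), and of 428 single-gene ratios 271 stayed within that interval, 156 moved outside it and 1 changed side. The alternatives for the floor, the summed libraries, the 73 cells, the lymphatic cell and the cell with most Cdkn2a UMIs were chosen after seeing the data. No paired analysis was possible because the labels give no replicate numbers and the table is 1 pooled sample. The 79 comparison cells, 10 of them in library 2, limit the depth of every ratio.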
